A study of Homo sapiens with 6 samples.

Results

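The nuclear-encoded subunits of the mitochondrial respiratory chain and of ATP synthase were described in H1 cells, a human embryonic stem cell line, on day 3 of their differentiation into definitive endoderm (DE). Members were the rows of the expression table whose gene symbol follows the naming of NDUF, SDH, UQCR, COX5 to COX8 or ATP5 subunits. The pattern matched 110 of the 40396 genes listed, of which 81 are subunit genes and 29 are pseudogenes of ATP synthase genes. The subunit genes comprised 36 of complex I, 4 of complex II, 8 of complex III, 15 of complex IV and 18 of ATP synthase. NDUFA4, which is named as a complex I gene, was placed with complex IV, where its protein is found. Cells of both groups received activin A at 50 ng/mL, with CHIR99021, an activator of Wnt signaling, at 2.5 µM during the initial 24 h. The SAR group (3 samples) received saracatinib (SAR), an inhibitor of Src family kinases, at 0.5 µM for the whole period. At this dose the study reports no effective inhibition of Src phosphorylation, while that of focal adhesion kinase was reduced at some sites. The control group (3 samples) received no SAR. DMSO is the vehicle that the study names for the controls of its protein assays. The cell type is labelled ESCs, while the sample titles name definitive endoderm.

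Complexes I to IV of the inner mitochondrial membrane pass electrons from NADH and succinate to oxygen, and complexes I, III and IV pump protons as they do so. ATP synthase uses the proton gradient to make ATP. Complex II is encoded wholly in the nucleus, whereas the other complexes combine nuclear-encoded subunits with subunits encoded in the mitochondrial DNA (mtDNA). Pluripotent stem cells rely strongly on glycolysis, and respiratory activity generally increases as they differentiate.

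Expression was given as FPKM, the number of sequenced fragments scaled by gene length and by the total of the library. The library totals recovered from these values ranged from 18877964 to 24419937 reads in control and from 16681280 to 18389543 in SAR. The tested members rested on 14 to 23462 reads per library, and 63 of them on at least 500 reads in every library. Libraries of the same group differed by more than sampling noise, with a chi-square per degree of freedom of 4.0 to 13.3, so none was counted as a repeat of another. Whether the samples came from separate cultures is not stated, and the p-values measure only the spread between these samples. All 10 DE markers examined were detected in both groups. With SAR, SOX17, FOXA2, HHEX and KIT were higher and GSC, CXCR4, CER1, EOMES, GATA6 and GATA4 were lower. The 10 genes together had a summed FPKM of 3960 to 5060 in control and 2070 to 2130 in SAR. This sum is led by the most abundant of them. The median level of the 10 genes was 39.4 FPKM in control and 56.6 FPKM in SAR, and their median log2 fold change was -0.54. The part of these marker differences in the results below was not tested. POU5F1, a pluripotency factor, was still present, at mean levels of 181 FPKM in control and 219 FPKM in SAR. Of the 6 pluripotency markers examined, 2 were higher with SAR and 1 was lower. Of 4 neural ectoderm markers, PAX6 and SOX1 were at means under 0.1 FPKM, and 1 other averaged 154 FPKM in control and 141 FPKM in SAR. Of 8 mesoderm markers, 4 averaged 0.5 FPKM or more, with 2 higher and 1 lower. Of 6 extraembryonic markers 1 did, and it was higher. Over all tested genes 23.7% were higher and 9.55% lower. In bulk samples such as these, fewer cells of a type and less RNA per cell cannot be told apart.

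The levels of the subunit genes covered a wide range. Averaged over the 6 libraries, 9 subunit genes stood at 100 FPKM or more, 49 from 10 to under 100 FPKM, 15 from 1 to under 10 FPKM, and 8 under 1 FPKM. The highest member of complex I was NDUFS5, an accessory subunit, at 361 ± 24.8 FPKM in control and 448 ± 51.1 FPKM in SAR (SD, n = 3). In complex III it was UQCRH, the hinge protein beside cytochrome c1, at 193 ± 8.98 and 226 ± 14.9 FPKM. In complex IV it was COX7C, at 143 ± 9.1 and 185 ± 18.9 FPKM. In ATP synthase it was ATP5F1B, the catalytic beta subunit, at 387 ± 15.9 and 394 ± 14.7 FPKM. The most highly listed member of complex II was SDHC, a membrane anchor, at 71.7 ± 3.66 and 70.5 ± 2.69 FPKM. The lowest member of complex II was SDHA, its flavoprotein, listed at 1.01 ± 0.087 FPKM in control and 1.05 ± 0.0415 FPKM in SAR. The genome annotation names 3 pseudogenes of SDHA, and it names pseudogenes for 44 of the subunit genes. Their part in the levels was not tested.

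Summed over the members, the FPKM of the subunit genes was 3630 ± 140 in control and 4210 ± 273 in SAR (SD, n = 3), and every SAR library lay above every control library. The summed FPKM of complexes I, III and IV and of ATP synthase was also higher in each SAR library than in any control library, with ratios of the means of 1.2, 1.15, 1.22 and 1.09. The sum of the 4 complex II genes overlapped between the groups, at 118 ± 3.25 FPKM in control and 116 ± 4.87 FPKM in SAR. After median-ratio rescaling, explained below, the groups overlapped for all subunit genes together and for complexes I and III and ATP synthase, with ratios of 1.05, 1.09, 1.04 and 0.987. With it the SAR libraries lay above the control libraries for complex IV (ratio 1.11) and below them for complex II (0.893). These sums are led by a few abundant genes and were not tested.

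Members were then compared between SAR and control with limma on log2(FPKM + 0.1), in a model fitted over the 16371 genes that averaged 0.5 FPKM or more. Of the 81 subunit genes, 75 passed this minimum. The 6 that did not were NDUFA7, COX6A2, COX6B2, COX7B2, COX8C and ATP5MGL. COX6B2 was nearest to the minimum, at a mean of 0.489 FPKM. At an adjusted p under 0.05, 27 of the 75 (36.0%) were higher with SAR, against 23.7% of all tested genes. NDUFS1 alone (1.33%) was lower, against 9.55% of all tested genes. With limma 0 members also passed a log2 fold change of 1, which 5% of all tested genes did, and 0 passed it at an unadjusted p under 0.05 or with voom on the recovered reads. The median log2 fold change was 0.22 over the members and 0.12 over all tested genes. All 3 SAR libraries lay above all 3 control libraries in 38 of the 75 members (50.7%) and in 35.5% of all tested genes. They lay below in 1 member and in 15.2% of all tested genes. The differences were small for all tested members, with log2 fold changes from -0.22 to 0.65.

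Most of these calls depended on how the libraries were scaled. Median-ratio rescaling divides a library by the median of its ratios to the average library. With it, the median of all tested genes moved from 0.12 to -0.02 and that of the members from 0.22 to 0.08. The gap between the members and all genes was 0.1 on the log2 scale with either scaling. Dividing a library by 1 factor shifts its genes nearly alike, so this gap could hardly change and its size is no check. With quantile normalization, which gives all libraries the same distribution of values, the medians were 0.17 for the members and 0.01 for all tested genes. After rescaling, 8 members (10.7%) were higher, against 12.6% of all tested genes, and 4 (5.33%) were lower, against 15.5%. All 8 were among the 27 called as deposited. The 4 lower members were NDUFS1 and SDHB, together with ATP5PD and NDUFB4, which are named here because of these values.

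**Figure D1:**
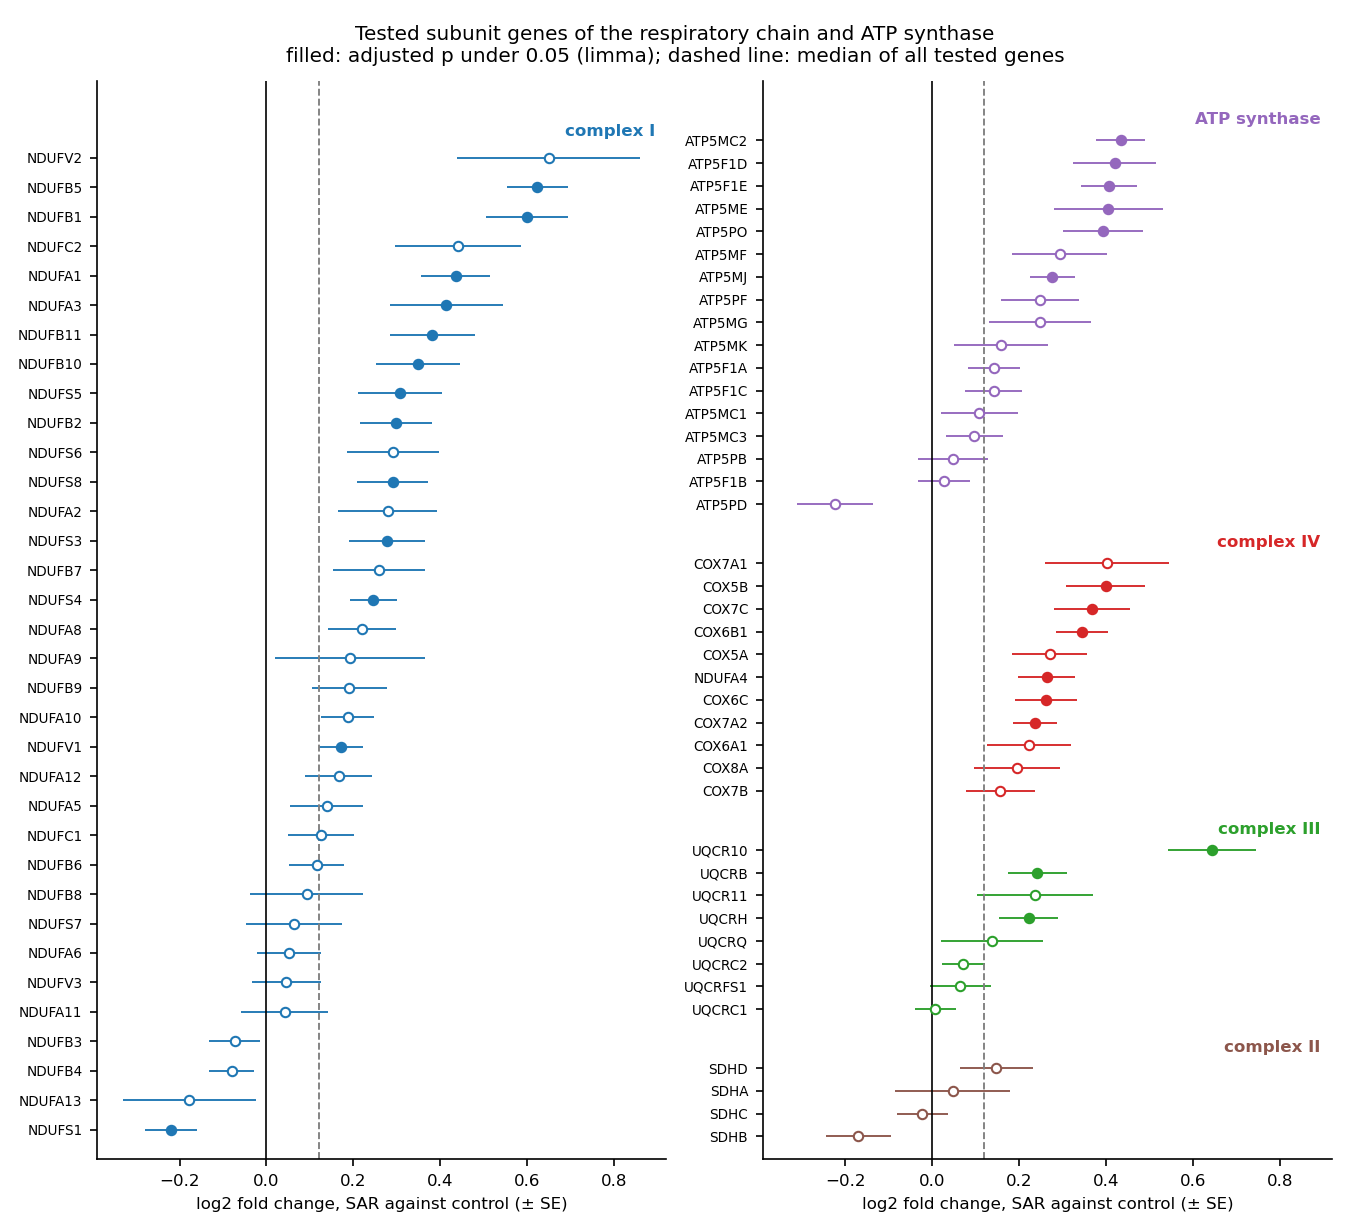
Log2 fold change of SAR against control (x axis, FPKM as deposited, bars: SE) of 74 of the 75 tested subunit genes (y axis), by complex, with filled points at an adjusted p under 0.05 (limma). The solid line marks 0 and the dashed line the median of all tested genes, 0.12; UQCR10, NDUFB5 and NDUFB1 were the farthest to the right of those called, and NDUFS1 was the only member called lower.

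The members called higher with either scaling were UQCR10 of complex III, NDUFB5, NDUFB1 and NDUFA1 of complex I, COX6B1 of complex IV, and ATP5MC2, ATP5F1D and ATP5F1E of ATP synthase. All of them but ATP5F1D also kept their call in each fit without 1 library. UQCR10 (ENSG00000184076, chr22:29767369-29770413 on GRCh38, plus strand) encodes a small subunit of complex III. Its level was 34.2, 27.9 and 30.3 FPKM in control and 54.1, 45.6 and 44.8 FPKM in SAR. The lowest SAR library was above the highest control library, and the log2 fold change was 0.64 ± 0.101 (SE, adjusted p = 0.00493), a ratio of means of 1.56. After rescaling the log2 fold change of UQCR10 was 0.5 (adjusted p = 0.00931).

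NDUFB5 (ENSG00000136521, chr3:179604690-179627647, plus strand) encodes an accessory subunit of the membrane arm of complex I. It was at 7.08, 7.27 and 6.99 FPKM in control and at 12, 10.5 and 10.6 FPKM in SAR. The groups did not overlap, the control libraries were close together, and the log2 fold change was 0.62 ± 0.0698 (adjusted p = 0.00169). NDUFB1 (ENSG00000183648, chr14:92116122-92121917, minus strand), another small accessory subunit of the membrane arm, was at 10.5, 9.19 and 10.4 FPKM in control and at 16, 16.4 and 13.4 FPKM in SAR. Its log2 fold change was 0.6 ± 0.0953 (adjusted p = 0.00505). These 3 genes had ratios of means between 1.52 and 1.56, and the other 5 had ratios between 1.27 and 1.35.

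NDUFA1 (ENSG00000125356, chrX:119871487-119876662, plus strand), an accessory subunit needed for the assembly of complex I, was at 150, 134 and 140 FPKM in control and at 204, 197 and 173 FPKM in SAR, without overlap (log2 fold change 0.44 ± 0.0791, adjusted p = 0.008). COX6B1 (ENSG00000126267, chr19:35648223-35658861, plus strand), a complex IV subunit that faces the intermembrane space, was at 100, 91.4 and 100 FPKM in control and at 129, 121 and 120 FPKM in SAR (log2 fold change 0.34 ± 0.0593, adjusted p = 0.0066). In both genes control replicate 2 was the lowest library and SAR replicate 1 the highest. ATP5F1E, the epsilon subunit of the F1 central stalk, was at 18.2, 16.5 and 18.3 FPKM in control and at 24.2, 24.0 and 22.2 FPKM in SAR. ATP5F1D, the delta subunit of the same stalk, was at 13.5, 10.8 and 12 FPKM in control and at 17.5, 15.5 and 15.5 FPKM in SAR. The log2 fold changes of this pair were close, at 0.41 ± 0.0646 for ATP5F1E (adjusted p = 0.00507) and 0.42 ± 0.095 for ATP5F1D (adjusted p = 0.0164). Without 1 library the adjusted p of ATP5F1D reached at most 0.0583.

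**Figure D2:**
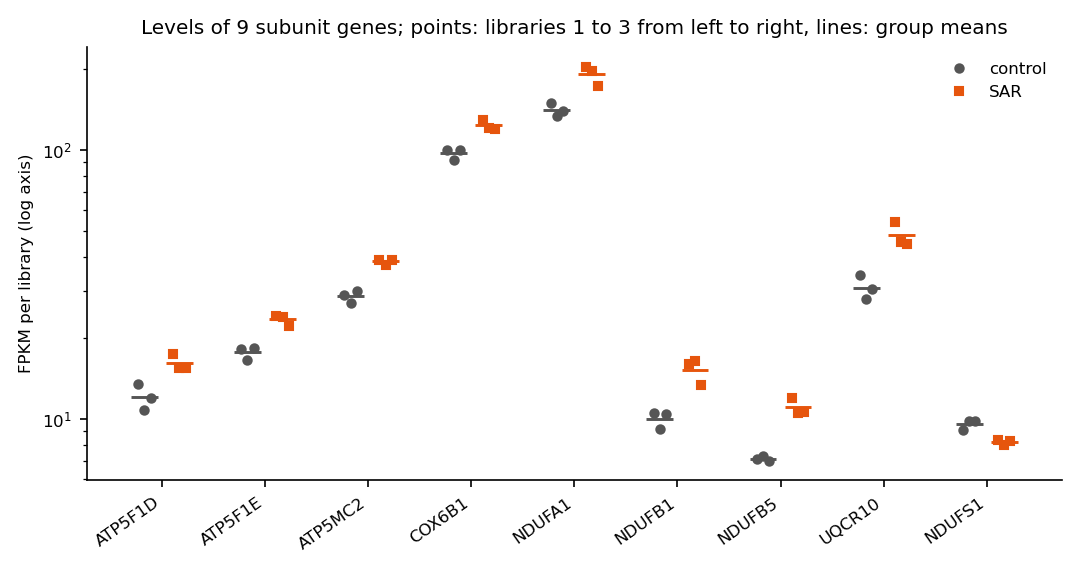
FPKM per library (y axis, log axis) of the 8 subunit genes called higher with SAR with either scaling and of NDUFS1, with grey circles for control, orange squares for SAR and lines at the group means. The groups do not overlap in any of the 9 genes, and NDUFS1 is the only one in which the SAR libraries lie below.

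The promoters of respiratory chain genes are known for sites of nuclear respiratory factor 1 (NRF1), of GABP, an ETS family factor also called NRF-2, and of YY1. RefSeq promoter windows (GRCh38.p14, 250 bases before to 50 bases after a start) were found for 66 of the 81 subunit genes. Both strands were searched for GCATGCGC (NRF1), CCGGAAG (GABP) and AAGATGGC (YY1), none of which contains another. The NRF1 letters were in the windows of 14 subunit genes (21.2%), against 3.68% of all genes with a window and 6.34% of the tested protein-coding genes. The GABP letters were in 20 (30.3%), against 12.2% and 22.1%, and the YY1 letters in 12 (18.2%), against 3.52% and 6.43%. In mitochondrial ribosomal protein genes the shares were 7.46% for NRF1, 41.8% for GABP and 31.3% for YY1, and in cytosolic ribosomal protein genes 4.35%, 34.8% and 10.1%. At least 1 of the 3 was present in 36 subunit genes (54.5%), against 17.6% of all genes with a window. This combined share is not given here for the tested protein-coding genes, in which the share of each of the 3 was higher than in all genes. Members with the NRF1 letters had a median log2 fold change of 0.18, and those without had 0.2. The medians were 0.22 with and 0.19 without the GABP letters, and 0.09 with and 0.22 without the YY1 letters. A match of letters is a description and not a site.

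The stretches below are shown because they hold such letters, in capitals, in genes named above or in NDUFS1, the member that was lower. ATP5MC2 holds the NRF1 letters in windows of different starts, 40 bases (site a) and 58 bases (site b) before the start. COX6B1, NDUFA1 and NDUFS1 hold the GABP letters on the opposite strand, 12, 47 and 157 bases before the start. The starts are those of the RefSeq windows. The stretches of ATP5MC2, COX6B1 and NDUFA1 lie inside the annotated gene, and that of NDUFS1 spans its annotated start. All 250 bases before the start lie in annotated exons in these windows of ATP5MC2, NDUFA1 and NDUFS1, and 100 of them in COX6B1. Each is written 5′ to 3′ on the strand of the gene.
ATP5MC2 site a, chr12:53676105-53676134, minus strand: gcccgggtcacGCATGCGCtgagccttcct
ATP5MC2 site b, chr12:53676370-53676399, minus strand: gtgtgacgactGCGCATGCtcggaaagggg
COX6B1, chr19:35648293-35648322, plus strand: agtccccacctctctcagCTTCCGGctggt
NDUFA1, chrX:119871774-119871803, plus strand: ttccgtcgcttCTTCCGGagccgtacgtgg
NDUFS1, chr2:206159583-206159612, minus strand: ggctggggccaCTTCCGGcggaactgcggg

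For UQCR10, the called member with the largest log2 fold change, the 250 bases before the start held none of these 3 words. They held a CCAAT box on the opposite strand, 191 bases before the start, in capitals in the sequence. The CCAAT letters were in the windows of 24 subunit genes (36.4%) and of 39.7% of all genes.
UQCR10, chr22:29767119-29767368, plus strand: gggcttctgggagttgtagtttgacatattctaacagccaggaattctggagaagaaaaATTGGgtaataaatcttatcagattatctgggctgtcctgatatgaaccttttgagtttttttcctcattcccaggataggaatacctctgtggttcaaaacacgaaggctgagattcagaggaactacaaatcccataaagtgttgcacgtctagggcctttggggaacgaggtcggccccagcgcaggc

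The counts by complex are to be read against all tested genes, of which 23.7% were higher and 9.55% lower as deposited, and 12.6% and 15.5% after rescaling. In complex I, 12 of the 35 tested members (34.3%) were higher with SAR and 1 was lower, and the median log2 fold change was 0.19. After rescaling 3 (8.57%) were higher and 2 lower, with a median of 0.07. The 7 hydrophilic core subunits carry the flavin and the iron-sulfur clusters that take electrons from NADH to ubiquinone, and they did not move together. NDUFS1 (ENSG00000023228, chr2:206114817-206159603, minus strand), which binds iron-sulfur clusters, was at 9.1, 9.81 and 9.83 FPKM in control and at 8.38, 7.98 and 8.26 FPKM in SAR. All SAR libraries lay below all control libraries, and its log2 fold change was -0.22 ± 0.0587 (adjusted p = 0.0288), and -0.36 after rescaling (adjusted p = 0.0147). As deposited, this call held in 2 of the 6 fits without 1 library, with an adjusted p of at most 0.113. NDUFS3, NDUFS8 and NDUFV1 were higher, with log2 fold changes of 0.28, 0.29 and 0.17, and none of them passed after rescaling. NDUFV1, which binds NADH and the flavin, was at 21.9, 21.6 and 22.6 FPKM in control and at 24.0, 25.5 and 25.2 FPKM in SAR (adjusted p = 0.038, and 0.702 after rescaling). NDUFS7, next to the site of ubiquinone, had a log2 fold change of 0.06 ± 0.11 and did not pass, and of -0.07 after rescaling.

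NDUFV2, the core subunit that pairs with NDUFV1, had the largest log2 fold change of all members, 0.65 ± 0.211, and missed the threshold (adjusted p = 0.0532). Its level was low and scattered, at 0.758, 0.589 and 0.606 FPKM in control and at 1.02, 0.871 and 1.38 FPKM in SAR, and 84.7% of its coding bases are shared with another annotated gene on the same strand. Of the accessory subunits, 2 of 11 tested NDUFA genes (18.2%, under the 23.7% of all genes) and 5 of 11 NDUFB genes (45.5%) were higher, with medians of 0.19 and 0.26. NDUFS4 and NDUFS5, accessory despite their names, were higher too, by 0.25 ± 0.0547 and 0.31 ± 0.0959 on the log2 scale (adjusted p = 0.0157 and 0.0467). Neither of them passed after rescaling (limma, adjusted p = 0.231 and 0.205). NDUFB4, by contrast, was at 86.7, 80.9 and 82.5 FPKM in control and at 81.1, 78.3 and 77.2 FPKM in SAR (log2 fold change -0.08, adjusted p = 0.261 as deposited and 0.0232 after rescaling). Its groups overlapped.

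In complex II, limma called 0 of 4 members as deposited, with 0 at an unadjusted p under 0.05 and 0 with voom. Its median log2 fold change was 0.01 as deposited and -0.12 after rescaling. This enzyme is also part of the citric acid cycle, where it oxidises succinate. SDHA was at 1.07, 1.05 and 0.913 FPKM in control and at 1.09, 1.02 and 1.03 FPKM in SAR (log2 fold change 0.05 ± 0.133). SDHB, the iron-sulfur subunit, was at 26.0, 25.3 and 27.4 FPKM in control and at 25.4, 23.2 and 21.4 FPKM in SAR, with a log2 fold change of -0.17 ± 0.0739 (adjusted p = 0.117). The SDHB groups overlapped through SAR replicate 1 and control replicate 2, and after rescaling the log2 fold change was -0.31 (adjusted p = 0.0306). The membrane anchors were SDHC, with a log2 fold change of -0.02 ± 0.0587, and SDHD, with 0.15 ± 0.0838. SDHD was at 19.3, 19 and 19 FPKM in control and at 24.1, 20.3 and 19.5 FPKM in SAR, so that its difference lay mostly in SAR replicate 1. With 4 genes, the complex was not shown to differ from the others.

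In complex III, 3 of 8 members (37.5%) were higher, and the median log2 fold change was 0.18, or 0.04 after rescaling. Beside UQCR10 these were UQCRB, which lies near the ubiquinone site, and UQCRH. UQCRB was at 21.6, 21.5 and 20.4 FPKM in control and at 27.0, 25.2 and 23.2 FPKM in SAR (log2 fold change 0.24 ± 0.068, adjusted p = 0.0338). UQCRH had a log2 fold change of 0.22 ± 0.0683 (adjusted p = 0.0449). Neither passed after rescaling, with log2 fold changes of 0.1 for UQCRB and 0.08 for UQCRH. The large core proteins UQCRC1 and UQCRC2 and the Rieske iron-sulfur protein UQCRFS1 stood at 0.01 ± 0.0474, 0.07 ± 0.0495 and 0.07 ± 0.0696 on the log2 scale, none of which passed, and at -0.13, -0.07 and -0.07 after rescaling. These 3 genes were named after their values were seen.

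In complex IV, which reduces oxygen to water, 6 of 11 tested members (54.5%) were higher and all 11 had a log2 fold change above 0 with either scaling, with a median of 0.26. After rescaling the median was 0.12 and COX6B1 (9.09%) was the only call. COX5B was at 64.3, 56.0 and 62.6 FPKM in control and at 90.5, 76.2 and 75 FPKM in SAR (log2 fold change 0.4 ± 0.0914, adjusted p = 0.0172, and 0.0657 after rescaling). COX7C was at 154, 136 and 140 FPKM in control and at 205, 184 and 168 FPKM in SAR (0.37 ± 0.0874, adjusted p = 0.0194, and 0.0824 after rescaling). The groups of COX5B and COX7C did not overlap, and SAR replicate 1 was the highest library in each. The others called were COX6C, COX7A2 and NDUFA4, with log2 fold changes of 0.24 to 0.26.

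Several complex IV subunits have paralogs that are used in heart and skeletal muscle or in testis. The ubiquitous forms made up nearly all of the FPKM of each set. COX7A1, the muscle form of COX7A, took 1.77 ± 0.228% of the COX7A FPKM in control and 2.02 ± 0.272% in SAR, and COX6A2 took 0.118 ± 0.102% and 0.0636 ± 0.11% of that of COX6A. Of 6 heart and skeletal muscle markers, ACTA1 and ACTC1 were detected, at means of 7.6 to 29.5 FPKM, and MYH7, TNNT2, MYL2 and CKM were under 0.5 FPKM on average. COX7A1 itself was at 1.09, 1.05 and 1.36 FPKM in control and at 1.43, 1.51 and 1.76 FPKM in SAR, without overlap (log2 fold change 0.4 ± 0.143, adjusted p = 0.0684). These levels rest on few reads, 14, 15 and 15 in control and 14, 15 and 19 in SAR. After rescaling the log2 fold change of COX7A1 was 0.27 (limma, adjusted p = 0.193). COX6B2, the testis form of COX6B, was at 0.479, 0.242 and 0.228 FPKM in control and at 0.596, 0.714 and 0.672 FPKM in SAR. It fell under the minimum and was not tested, and all of its coding bases are shared with another annotated gene on the same strand. COX8C was listed at 0.59, 0.0756 and 0.0977 FPKM in control and at 0 in the SAR libraries, and COX7B2 at 0.223 FPKM in control replicate 1 and at 0 elsewhere. The COX8C values in control stand for 7, 1 and 1 reads, and the COX7B2 value for 1 read. COX6A2 had at most 1 read in any library. Such read numbers are too low to compare the groups.

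In ATP synthase, 6 of 17 tested members (35.3%) were higher, and the median log2 fold change was 0.25. After rescaling 3 (17.6%) were higher and 1 lower, with a median of 0.11. The catalytic head consists of the alpha subunit ATP5F1A and the beta subunit ATP5F1B. ATP5F1A was at 82.7, 88.1 and 90.5 FPKM in control and at 91.3, 98.4 and 98.6 FPKM in SAR (log2 fold change 0.14 ± 0.0592, adjusted p = 0.105). ATP5F1B had a log2 fold change of 0.03 ± 0.0597 (adjusted p = 0.758), and of -0.11 after rescaling. Of the central stalk, the delta and epsilon subunits passed and the gamma subunit ATP5F1C did not, at 0.14 ± 0.0655 on the log2 scale (adjusted p = 0.137, and 0.00 with an adjusted p of 0.986 after rescaling). ATP5F1C was named after its values were seen. In the peripheral stalk, ATP5PO was higher (0.39 ± 0.0924, adjusted p = 0.0188, and 0.0714 after rescaling). ATP5PD, of the same stalk, was at 58.0, 53.4 and 52.3 FPKM in control and at 52.8, 44.7 and 43.0 FPKM in SAR (log2 fold change -0.22 ± 0.0878, adjusted p = 0.09, and -0.36 with an adjusted p of 0.0233 after rescaling). Of the small membrane subunits, ATP5ME and ATP5MJ were higher, by 0.41 and 0.28, and neither passed after rescaling (limma, adjusted p = 0.12 and 0.127).

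The proton-carrying c-ring of ATP synthase is made of 1 mature protein that 3 genes encode with different targeting sequences. ATP5MC2 was at 28.9, 26.9 and 29.8 FPKM in control and at 39.0, 37.5 and 39.0 FPKM in SAR, without overlap (log2 fold change 0.43 ± 0.0569, adjusted p = 0.00273). ATP5MC1 and ATP5MC3 had log2 fold changes of 0.11 ± 0.0885 and 0.1 ± 0.0655 and did not pass, and both were below 0 after rescaling, at -0.03 for ATP5MC1 and -0.04 for ATP5MC3. The share of ATP5MC2 in the FPKM of the 3 genes does not depend on the scaling of libraries. It was 27.9%, 28.4% and 28.8% in control and 33.1%, 31.7% and 35.2% in SAR. That of ATP5MC3 was 58.8 ± 0.51% in control and 54.7 ± 1.54% in SAR, and that of ATP5MC1 was 12.9 ± 0.949% and 12 ± 0.346%. An exact permutation test of 3 against 3 libraries cannot go below p = 0.1, so these shares were not tested.

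Members rose and fell together from library to library within a group. Among the tested members, SAR replicate 1 was the highest SAR library in 57 of 75 (76.0%) and SAR replicate 3 the lowest in 57. Over all tested genes the corresponding shares were 34.1% and 35.8%. In control, replicate 1 was the highest library in 51 members (68.0%) and replicate 2 the lowest in 50 (66.7%), against 42.4% and 39.8% of all tested genes. The median deviation of the members from their mean over the group was 0.1 in SAR replicate 1, -0.1 in SAR replicate 3, 0.07 in control replicate 1 and -0.06 in control replicate 2 on the log2 scale. These steps are close in size to the gap between the members and all genes. The count of members called higher moved with the libraries in the fit. It was 8 without control replicate 3, 11 without control replicate 2, 15 without SAR replicate 1, 11 without SAR replicate 2, 22 without control replicate 1 and 33 without SAR replicate 3. The median stayed between 0.17 and 0.27 in these fits. The shares of all tested genes called in these fits are not given here, so these counts do not single out the members.

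**Figure D3:**
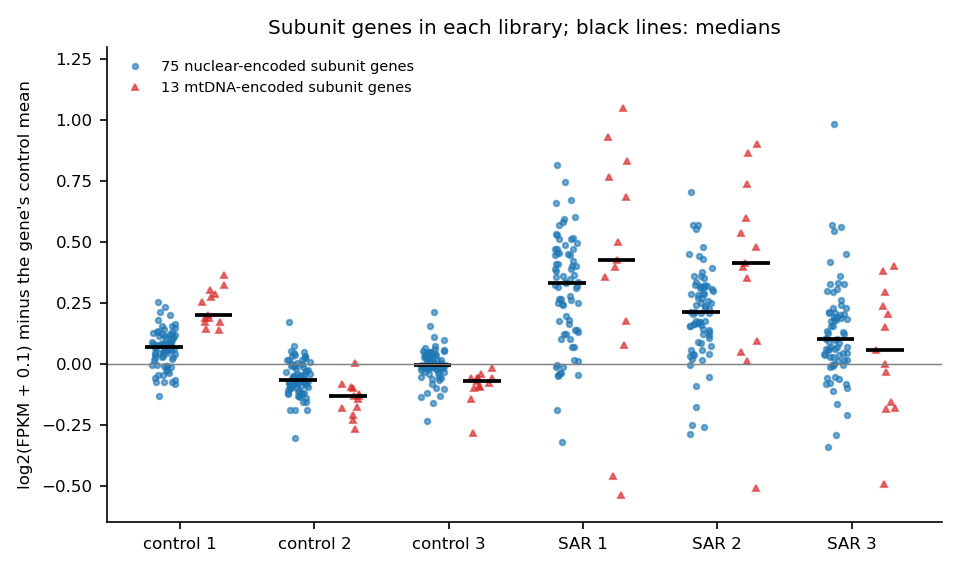
Log2(FPKM + 0.1) minus the mean of the gene in control (y axis) in each library (x axis) for the 75 tested nuclear-encoded subunit genes (blue circles) and the 13 mtDNA-encoded ones (red triangles), with black lines at the medians. The nuclear-encoded median was 0.33 in SAR replicate 1, 0.21 in SAR replicate 2 and 0.1 in SAR replicate 3.

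Coding length was set beside the log2 fold changes. Of the 20 tested members with a longest annotated coding sequence of at most 100 codons, 10 (50.0%) were higher and their median log2 fold change was 0.28, against 36.4% higher among all tested protein-coding genes of that length. Between 100 and 150 codons 6 of 18 members (33.3%) were higher, against 34.9%, and between 150 and 300 codons 10 of 26 (38.5%), against 31.7%, with a median of 0.23 in both classes of members. Of the 11 with more than 300 codons, 1 (9.09%) was higher, against 24.3%, and 1 lower, with a median of 0.07. All tested protein-coding genes were ordered the same way, with a median of 0.23 up to 100 codons and 0.09 above 300 codons. Across the 75 members Spearman's rho between coding length and log2 fold change was -0.42 (Pearson's r = -0.41), and across 12578 protein-coding genes it was -0.18. The members share the same 6 libraries and are not independent, so these are descriptions. After rescaling the medians of the members were 0.14 up to 100 codons and -0.07 above 300 codons.

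**Figure D4:**
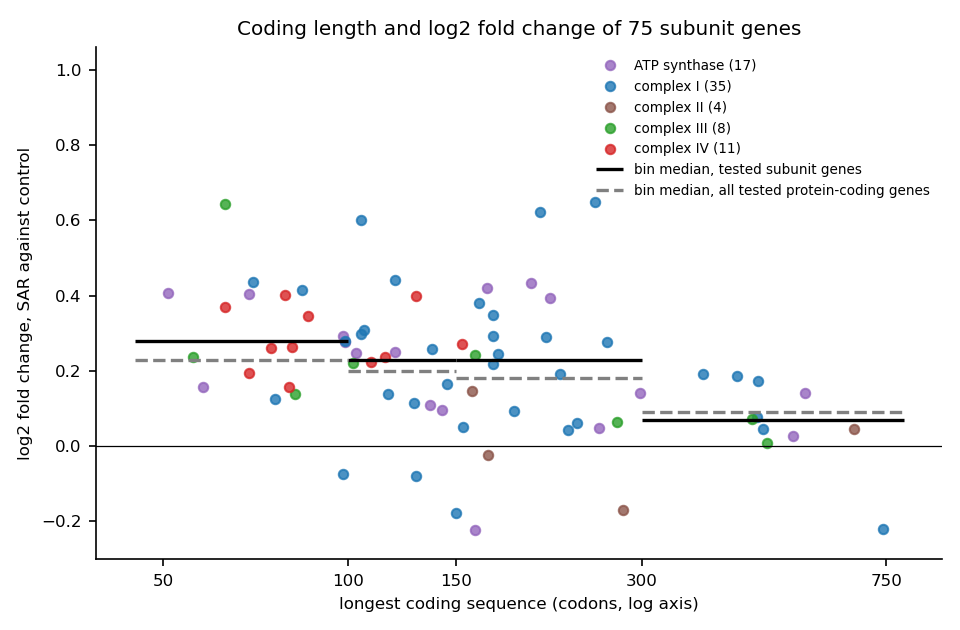
Log2 fold change of SAR against control (y axis, FPKM as deposited) and length of the longest annotated coding sequence (x axis, codons, log axis) of the 75 tested subunit genes, coloured by complex. Lines mark medians of length classes for the members (solid) and for all tested protein-coding genes (dashed): 0.28 and 0.23 up to 100 codons, and 0.07 and 0.09 above 300 codons.

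In 12 subunit genes at least 50% of the coding bases overlap exons of another annotated gene on the same strand, and their median level was 5.31 FPKM, against 30.2 FPKM in the other 69. Among them were NDUFA7 (78.3% shared), NDUFA9 (67.9%) and NDUFB8 (85.2%), listed in control at 0.309, 0.891 and 4.73 FPKM. The same 12 include COX8A (55.1% shared) and COX6A1 (53.5%), at means of 127 and 55.0 FPKM over the 6 libraries, and 5 of the 12 were under 2 FPKM. These genes, apart from NDUFA7 and the paralogs COX8A and COX6A1, were named after their values were seen. How reads in overlaps were counted is not stated, and its part in these levels was not tested. Of the 53 tested members that share no coding base, 23 (43.4%) were higher and 1 (1.89%) lower, with a median of 0.22. Of the 22 that share some, 4 (18.2%) were higher, with a median of 0.23. Over all tested genes 23.7% were higher and 9.55% lower, and whether the 2 sets of members differ was not tested. Of the 29 pseudogenes that the pattern matched, 4 passed the minimum. Among these, ATP5MC1P4 was higher, at 2.47 ± 0.104 FPKM in control and 3.86 ± 0.657 FPKM in SAR (log2 fold change 0.61 ± 0.125, adjusted p = 0.0117). It resembles ATP5MC1, so reads may be split between them.

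The 13 subunits encoded in mtDNA had a median log2 fold change of 0.32. Of them, 4 (30.8%) were higher and 1 (7.69%) lower, against 23.7% and 9.55% of all tested genes. After rescaling the median was 0.18, with 2 (15.4%) higher and 1 (7.69%) lower, against 12.6% and 15.5%. MT-ND3, a complex I subunit, was at 699, 517 and 559 FPKM in control and at 1120, 1070 and 765 FPKM in SAR (log2 fold change 0.73, adjusted p = 0.0196). MT-ND1 had a log2 fold change of 0.66 (adjusted p = 0.0219), and MT-CO2, of complex IV, one of 0.53 (adjusted p = 0.0347). MT-ND4L was at 2450, 2230 and 2010 FPKM in control and at 1530, 1560 and 1580 FPKM in SAR, and had a log2 fold change of -0.51 (adjusted p = 0.00628). MT-ND4L overlaps MT-ND4 in the mitochondrial genome, and its reads may be shared. Summed over the 13 genes the groups overlapped, at 25900 ± 3050 FPKM in control and 29500 ± 4050 FPKM in SAR (SD, n = 3). As with the nuclear-encoded members, control replicate 1 and SAR replicate 1 had the highest sums of their groups.

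Of subunits and carriers outside the symbol pattern 5 of 8 (62.5%, against 23.7% of all genes) were higher, with a median of 0.22, and after rescaling 1 was higher and 1 lower, with a median of 0.08. They included COX4I1, the ubiquitous COX4 of complex IV (59.3, 53.7 and 56.8 FPKM in control, 75.5, 72.9 and 66.2 FPKM in SAR, log2 fold change 0.34, adjusted p = 0.0116), and NDUFA4L2, a paralog of NDUFA4 (0.69, adjusted p = 0.0153). Of 53 tested assembly factors, 12 (22.6%, close to the 23.7% of all genes) were higher and 0 lower (9.55% of all genes), with a median of 0.18. At an unadjusted p under 0.05 the counts were 25 and 2, and with voom 17 and 2. The shares of all tested genes for these 2 pairs of counts are not given here. After rescaling 6 (11.3%) were higher and 4 (7.55%) lower, against 12.6% and 15.5% of all tested genes, with a median of 0.04. SDHAF1 and SDHAF4, which help to assemble complex II, were higher by 0.8 and 0.45 on the log2 scale (adjusted p = 0.00217 and 0.00212) and passed after rescaling too, at 0.66 and 0.31. SDHAF1 was at 4.54, 4.44 and 3.77 FPKM in control and at 8.1, 6.87 and 7.44 FPKM in SAR. The complex II subunits that they serve had no call as deposited.

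Other mitochondrial genes did not all move in this direction. Of 18 genes of the citric acid cycle and pyruvate dehydrogenase, 1 (5.56%) was higher and 4 (22.2%) were lower, with a median of -0.05. After rescaling 1 (5.56%) was higher and 5 (27.8%) were lower, with a median of -0.19. Of all tested genes 23.7% were higher and 9.55% lower as deposited, and 12.6% and 15.5% after rescaling. MDH2, mitochondrial malate dehydrogenase, was at 54.4, 51.6 and 55.5 FPKM in control and at 81.7, 83.8 and 75.8 FPKM in SAR (log2 fold change 0.58, adjusted p = 0.00124). PDHB, a subunit of pyruvate dehydrogenase, was at 70.1, 81.9 and 71.6 FPKM in control and at 52.5, 47.5 and 50.8 FPKM in SAR (log2 fold change -0.57, adjusted p = 0.00293), and SUCLA2 had a log2 fold change of -0.52 (adjusted p = 0.00331). Of 75 tested mitochondrial ribosomal protein genes, 17 (22.7%) were higher and 3 lower, with a median of 0.13, close to the 23.7% and 0.12 of all genes, whereas 2 were higher and 4 lower after rescaling, with a median of -0.01. MRPS17 and MRPL55 had the smallest adjusted p among those higher (log2 fold changes 0.98 and 0.44), and MRPL19 and MRPL2 among those lower (-0.28 and -0.39). Of 24 tested import genes, 5 (20.8%) were higher and 3 (12.5%) lower, near the shares of all genes, with a median of 0.03. After rescaling 1 (4.17%) was higher and 4 (16.7%) were lower, with a median of -0.1. The import genes called as deposited were led by TIMM22 (0.4) and TIMM17B (0.28) and, among those lower, TOMM20 (-0.56) and TOMM70 (-0.24).

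Among 16 tested regulators of mitochondrial biogenesis, 2 (12.5%) were higher and 3 (18.8%) were lower, with a median of 0.06. The shares of all tested genes were 23.7% and 9.55%. After rescaling 1 (6.25%) was higher and 6 (37.5%) were lower, against 12.6% and 15.5%, with a median of -0.08. NRF1 was at 4.18, 4.05 and 4.48 FPKM in control and at 5.59, 5.26 and 5.57 FPKM in SAR (log2 fold change 0.36, adjusted p = 0.0087, and 0.0572 after rescaling). GABPA, the DNA-binding subunit of GABP, had a log2 fold change of -0.3 (adjusted p = 0.0183), MYC one of -0.83 (adjusted p = 0.023) and ESRRG one of 0.93 (adjusted p = 0.0125). YY1, named after its values were seen, had a log2 fold change of -0.19 (adjusted p = 0.0332). PPARGC1A and PPARGC1B, the coactivators PGC-1alpha and PGC-1beta, were under the minimum, at 0.364 and 0.147 FPKM in control and 0.223 and 0.158 FPKM in SAR.

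Cytosolic ribosomal protein genes, taken as a list of other short and abundant housekeeping genes, had the same median as the members, 0.22 as deposited and 0.08 after rescaling. Of 83 tested, 43 (51.8%) were higher and 1 (1.2%) lower as deposited, against 23.7% and 9.55% of all tested genes. After rescaling 5 (6.02%) were higher and 1 (1.2%) lower, against 12.6% and 15.5%. Glycolysis genes had a median of -0.21, with 2 of 20 higher and 7 lower. SLC2A3, a glucose transporter, was at 1260 ± 168 FPKM in control and 613 ± 85.8 FPKM in SAR (log2 fold change -1.04, adjusted p = 0.00239), and PKM, a pyruvate kinase, at 482 ± 54.2 and 324 ± 20.5 FPKM (-0.57, adjusted p = 0.00583). LDHB and PFKP were the glycolysis genes that were higher, by 0.51 and 0.27. After rescaling the glycolysis median was -0.35, with 1 higher and 9 lower. Whether the lists differ from each other was not tested.

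**Figure D5:**
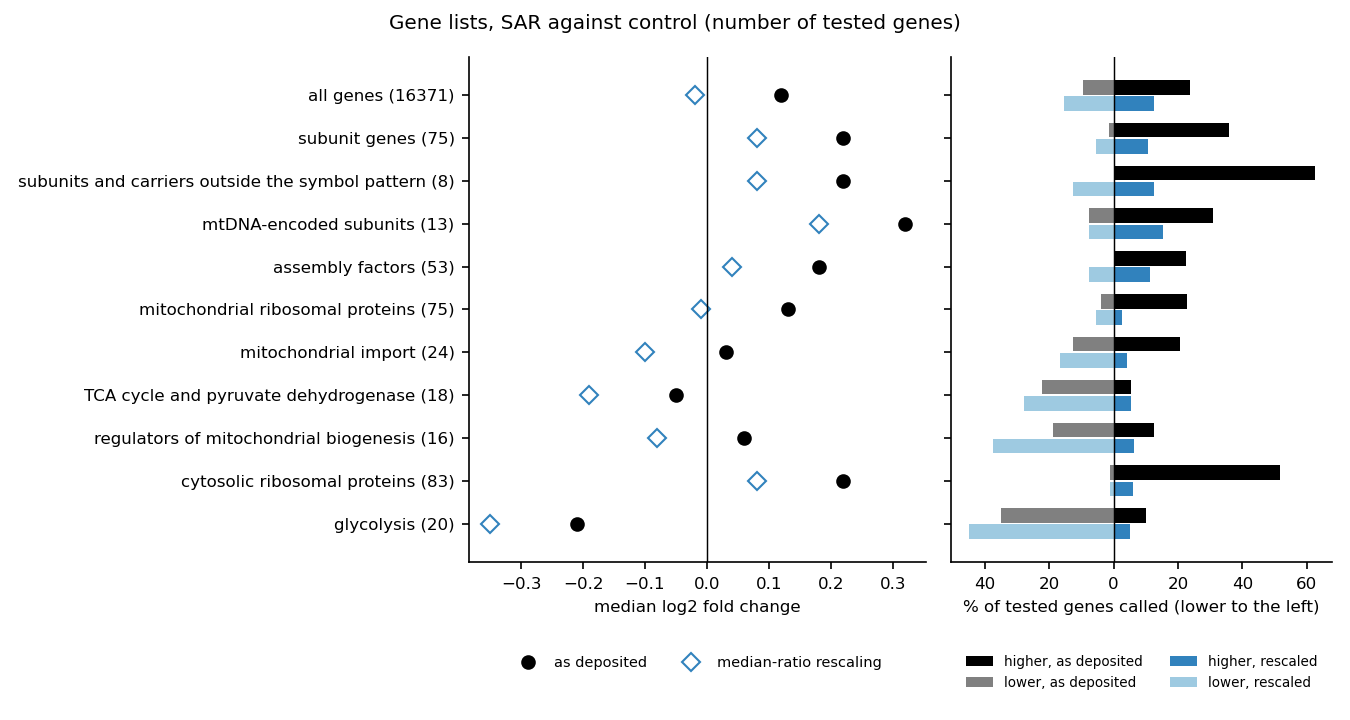
Left, median log2 fold change of SAR against control for the subunit genes, related gene lists and all genes, as deposited (black) and after median-ratio rescaling (blue); right, the percentage of tested genes called higher (to the right) or lower (to the left) at an adjusted p under 0.05. The subunit genes stood at 0.22 and 0.08 and the glycolysis genes at -0.21 and -0.35, while the median of all genes moved from 0.12 to -0.02.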

How the data were processed

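RNA-seq of 3 control and 3 SAR samples was analysed. The deposited values were FPKM for 40396 Ensembl genes, 1 column per sample, which the authors made from oligo(dT)-selected paired-end libraries. The submitters' processing notes name HISAT2, featureCounts of Subread, DESeq2 and GRCh38.p13. Versions, the annotation release and the strand setting were not given in the sources used here. FPKM are scaled by library total and by nothing else between libraries.

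Symbols came from a gene name table, with a symbol for 30235 of the IDs. Exon lengths, positions, coding lengths and overlaps came from GENCODE 29, which holds 39023 of them. Library totals and read numbers were recovered as the whole numbers that give the FPKM at a gene's length, to within 0.01 of a read. In 59.2% of the annotated genes that length was the exon union of GENCODE 29. The recovered reads served for depth and for voom, and cover counting error only.

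Because FPKM are not counts, limma 3.58.1 (R 4.3.3, lmFit, eBayes with an intensity trend) was run on log2(FPKM + 0.1) for genes averaging 0.5 FPKM or more, two-sided, with Benjamini-Hochberg adjustment over all of them and a threshold of 0.05. The pseudocount of 0.1 makes the fold changes of low genes smaller. On simulated data for SAR against control, in 16138 tested genes, 73.9% of genes with at least 500 reads and a log2 change of 0.5 were called (17 of 23) and 100% of those with 1 or 2, with 11 false calls. The simulation gave all genes the same dispersion (0.00317) and the libraries no shared shift or scaling difference. It held no change between 0 and 0.5, while the median of the members was 0.22. It therefore does not measure how many member calls are false or missed. Summaries used Python 3.11.15, pandas 2.3.3 and numpy 2.4.6, and plots matplotlib 3.10.9.

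Members and gene lists were chosen with earlier results of these data known. Genes were named by rule: in each complex up to 3 members called higher and 3 called lower, by size of the log2 fold change, and the members of highest and lowest mean, the SDH genes, the core hydrophilic subunits, the alpha and beta subunits, paralog sets, members under the minimum, and up to 2 genes per direction of each related list. Others were named after their values were seen, among them the members called with either scaling or in fits without 1 library, and IDs of the cytosolic ribosomal list are not named. The values of 1 member are not reported here by name. The alternatives were other pseudocounts, minimum levels and scalings, no trend, a replicate block, voom, protein-coding genes only and each library left out. Rescaling together with a library left out, members sharing no coding base, and rescaled sums, were added after the data had been seen.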

Additional observations from a re-analysis of the deposited data

How the results depend on the processing

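The count of members higher with SAR was 27 of 75 and that of members lower was 1. It was 8 higher and 4 lower after median-ratio rescaling, with a median log2 fold change of 0.08 in place of 0.22, 13 and 0 with no filter on low values, 17 higher with no intensity trend, and 23 and 2 after rescaling to protein-coding sums. Without 1 library each, the count higher lay between 8 and 33, the count lower between 0 and 1 and the median between 0.17 and 0.27, and with the rescaling as well they lay between 4 and 12, 0 and 4, and 0.03 and 0.13 (7 higher and a median of 0.09 without control replicate 1, and medians of 0.07 without control replicate 2 or 3). No member passed a log2 fold change of 1 in these fits. Pseudocounts of 1 and 0.01, a minimum of 1 FPKM, quantile normalization, voom and protein-coding genes only gave between 19 and 35 higher. After quantile normalization 19 of the 75 members were higher, and 14.8% of all tested genes. Apart from this fit, the fit as deposited and median-ratio rescaling, the shares of all tested genes are not given here. The cause of these moves was not tested, except that fewer samples or more genes were fitted where a library or the filter was left out.

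Replicate numbers are shared by the labels, but deviations of same-numbered samples correlated by 0.0729, 0.00286 and 0.0247, so the numbers were not taken as pairs. With a replicate block there were 30 members higher and 1 lower, which was ATP5PD (adjusted p = 0.0395), while NDUFS1 (0.0627) and NDUFV1 (0.0702) were among those that lost their calls, and ATP5MG (0.0473) and COX6A1 (0.0421) were among those that gained one.

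Some directions changed among members that were not called. ATP5F1B was at -0.11 after median-ratio rescaling, -0.08 after quantile normalization, -0.00 after rescaling to protein-coding sums and -0.01 without control replicate 1, the lowest of -0.01 to 0.06 without 1 library. With median-ratio rescaling ATP5MC1 was at -0.03, ATP5MC3 at -0.04, NDUFS7 at -0.07 and SDHA at -0.08. With quantile normalization NDUFS7 was at -0.12 and SDHA at -0.16, and without control replicate 3 they were at -0.01 and -0.02, the highest for SDHA without 1 library being 0.09. SDHC ranged from -0.06 to 0.01 without 1 library, with 0.01 without control replicate 2. Of all values recomputed for the members in this check, 522 kept their direction and side of the threshold, 79 lost the call, 14 gained it and 13 changed direction.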
